A study of Homo sapiens with 12 samples.

Results

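The 10 genes described here are the 4 scaffold proteins of the CAS family (NEDD9, BCAR1, EFS and CASS4), the 3 NSP adaptors that bind them (BCAR3, SH2D3A and SH2D3C), the focal adhesion kinase PTK2, and the mitotic kinase AURKA with its activator TPX2. They were taken as a named list and matched by symbol to the Ensembl identifiers of the count data, where all 10 were found among 58051 genes. Poly(A)-selected RNA of FaDu cells, a line from a hypopharyngeal squamous cell carcinoma, and of Cal27 cells, a line from a squamous cell carcinoma of the tongue, was sequenced. In each line the study compared treatment-naive parental cells with cells selected for resistance to afatinib (AfaR), which inhibits several ERBB receptors, or to erlotinib (ErlR), which inhibits EGFR. Each of the 6 groups had 2 libraries labelled as biological replicates, 12 libraries in all. The labels give the genotype WT and 1 batch for all 12 libraries. Each resistant model is 1 population grown out under stepwise rising doses of its drug, and by the study's methods cells were kept a day without drug before use, so each comparison with parental cells is between 2 cell populations. Nothing in the labels says that the replicates came from separate selections, and p-values measure only the spread between these libraries.

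CAS proteins have no enzyme activity. They carry an SH3 domain, a long stretch of tyrosine sites that focal adhesion kinase and SRC family kinases phosphorylate, and a C-terminal domain that NSP adaptors hold, and through these parts they join integrin adhesions to CRK, DOCK and RAP signalling in cell spreading and migration. NEDD9 has a further role at the centrosome, where it binds and activates AURKA on the way into mitosis. TPX2 binds AURKA in mitosis, holds it in its active form and carries it to the spindle microtubules. In squamous carcinomas NEDD9 is known chiefly for its part in migration and invasion.

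NEDD9 and BCAR3 had the largest called changes against parental cells among the 10 genes, so the sequence before 1 start of each is shown, in the direction of transcription. RefSeq starts on GRCh38.p14 were found for 6 of the 10 genes. NEDD9 had 3 starts, and the most distal one lies at the outer end of the gene, with 250 bases before it at chr6:11382349-11382598 on the minus strand. BCAR3 had 10 starts, and the 250 bases before the one nearest the gene's end in the count data lie at chr1:93847220-93847469 on the minus strand. Capitals in BCAR3 mark the reverse complement of the E-box CAGGTG, which begins 126 bases before the start.
NEDD9: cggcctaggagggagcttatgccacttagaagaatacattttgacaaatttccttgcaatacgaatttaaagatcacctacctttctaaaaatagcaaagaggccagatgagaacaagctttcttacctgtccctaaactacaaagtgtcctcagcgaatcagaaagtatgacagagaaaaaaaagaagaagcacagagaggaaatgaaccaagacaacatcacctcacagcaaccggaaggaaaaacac
BCAR3: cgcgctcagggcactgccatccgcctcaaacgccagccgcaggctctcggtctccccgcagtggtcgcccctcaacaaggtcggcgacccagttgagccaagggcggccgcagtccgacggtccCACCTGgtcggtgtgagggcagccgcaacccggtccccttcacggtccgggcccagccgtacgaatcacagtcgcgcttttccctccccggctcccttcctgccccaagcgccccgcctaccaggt
The NEDD9 stretch had 40.4% G and C and overlapped no annotated exon, while the BCAR3 stretch had 70.4% and overlapped an exon of the long noncoding RNA gene ENSG00000260464. Both strands were searched for the AP-1 motif TGANTCA, the E-box CAGGTG and the CCAAT box CCAAT, of which none overlaps another as a word. The NEDD9 stretch held none of them and the BCAR3 stretch held the E-box alone. The 250 bases before an internal NEDD9 start, at chr6:11232669-11232918, overlap an exon of NEDD9 and are not shown. They held 1 CCAAT box, which begins 65 bases before that start. Of 34943 windows of the same length before RefSeq starts, 6.59% held TGANTCA, 17.5% held CAGGTG and 32% held CCAAT. The count of NEDD9 sums reads from its distal and its internal starts, so use of 1 start or the other was not measured.

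Between 16334937 and 23399259 reads per library fell on genes, with a median of 16584450, and 3.86% to 5.82% of reads fell on ERCC spike-ins. Levels are given as CPM, the counts of a gene scaled to a common library size, after TMM scaling over the 12 libraries, and differences as log2 fold changes from edgeR's quasi-likelihood test with Benjamini-Hochberg adjustment over all genes tested, called at an adjusted p under 0.05. The afatinib and erlotinib comparisons of a line share its 2 parental libraries. All 12 squamous epithelial marker genes were above 1 CPM in at least 1 library of every group, with summed levels of 2671 to 19678 CPM, lowest in Cal27 AfaR at 2671 and 2758 CPM. Fibroblast markers summed to 4.66 to 41.8 CPM in 5 groups and to 315 and 327 CPM in Cal27 AfaR, of which COL1A1 made 266 and 273 CPM. Of the 9 fibroblast markers, 5 were under 1 CPM in both Cal27 AfaR libraries. Leukocyte markers summed to 15.9 to 40.0 CPM and endothelial markers to 2.68 to 37.6 CPM. In bulk RNA, fewer cells of a type and less RNA per cell cannot be told apart. Scaling by the ERCC spike-ins in place of TMM moved the median log2 fold change of all genes to 0.18 in FaDu AfaR, 0.49 in FaDu ErlR and 0.62 between the parental lines, and to 0.01 and 0 in Cal27 AfaR and Cal27 ErlR. The values of BCAR3, SH2D3A and PTK2 in FaDu AfaR and of TPX2 in FaDu ErlR, none of them called, changed sign under it, while NEDD9 in FaDu AfaR kept its direction and its call (2.19, adjusted p = 0.00993).

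Of the members, 8 passed the filter on low counts in FaDu and 9 in Cal27. CASS4 passed in neither line and SH2D3C in Cal27 only. In FaDu AfaR, 1 of 8 was called (NEDD9, higher), where 17.9% of all genes tested were called (10.4% higher, 7.49% lower). In FaDu ErlR none of 8 was called, where 4.18% of all genes were (2.58% higher, 1.6% lower). Of the 8, 3 had an unadjusted p under 0.05, and DESeq2 called 1. In Cal27 AfaR, 3 of 9 were called (BCAR3 higher, SH2D3A and PTK2 lower), where 37.6% of all genes were (19.5% higher, 18.2% lower). In Cal27 ErlR, 5 of 9 were called (BCAR1, BCAR3, AURKA and TPX2 higher, NEDD9 lower), where 27.6% of all genes were (12.3% higher, 15.3% lower). Between the resistant models, none of 8 was called in FaDu AfaR against FaDu ErlR, where 15.7% of all genes were, with 4 at an unadjusted p under 0.05, and 4 of 9 were called in Cal27 AfaR against Cal27 ErlR (NEDD9 higher, BCAR3, SH2D3A and AURKA lower), where 49.6% of all genes were. Between the parental lines 6 of 9 were called, 3 higher and 3 lower in Cal27 than in FaDu, where 55.6% of all genes were. The median log2 fold change of the members tested was -0.06, 0.08, -0.43 and 0.50 in these 4 comparisons in turn, beside medians of all genes between -0.03 and 0. Under ERCC scaling 2 members were called in FaDu AfaR and 5 in FaDu ErlR, all higher, of which TPX2 at a log2 fold change of 0.42 lay under the shifted median of all genes.

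Per kilobase of annotated exon, TPX2 (group means of 69.1 to 161 CPM per kb) and AURKA (43.2 to 106) had the highest levels of the 10 genes. BCAR1, the founding and most widely expressed CAS protein, had 15.2 to 25.9 CPM per kb and was the leading CAS scaffold in every group. NEDD9 had 0.231 to 1.21 CPM per kb, EFS 0.478 to 7.22, and CASS4 at most 0.0598. Among the adaptors BCAR3 led with 12.5 to 48.8 CPM per kb, followed by SH2D3A with 2.36 to 12.5 and SH2D3C with at most 0.2, and PTK2 had 6.19 to 11.6. These lengths sum the exons of all annotated transcripts, so a gene with many alternative exons has a lower value.

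**Figure D1:**
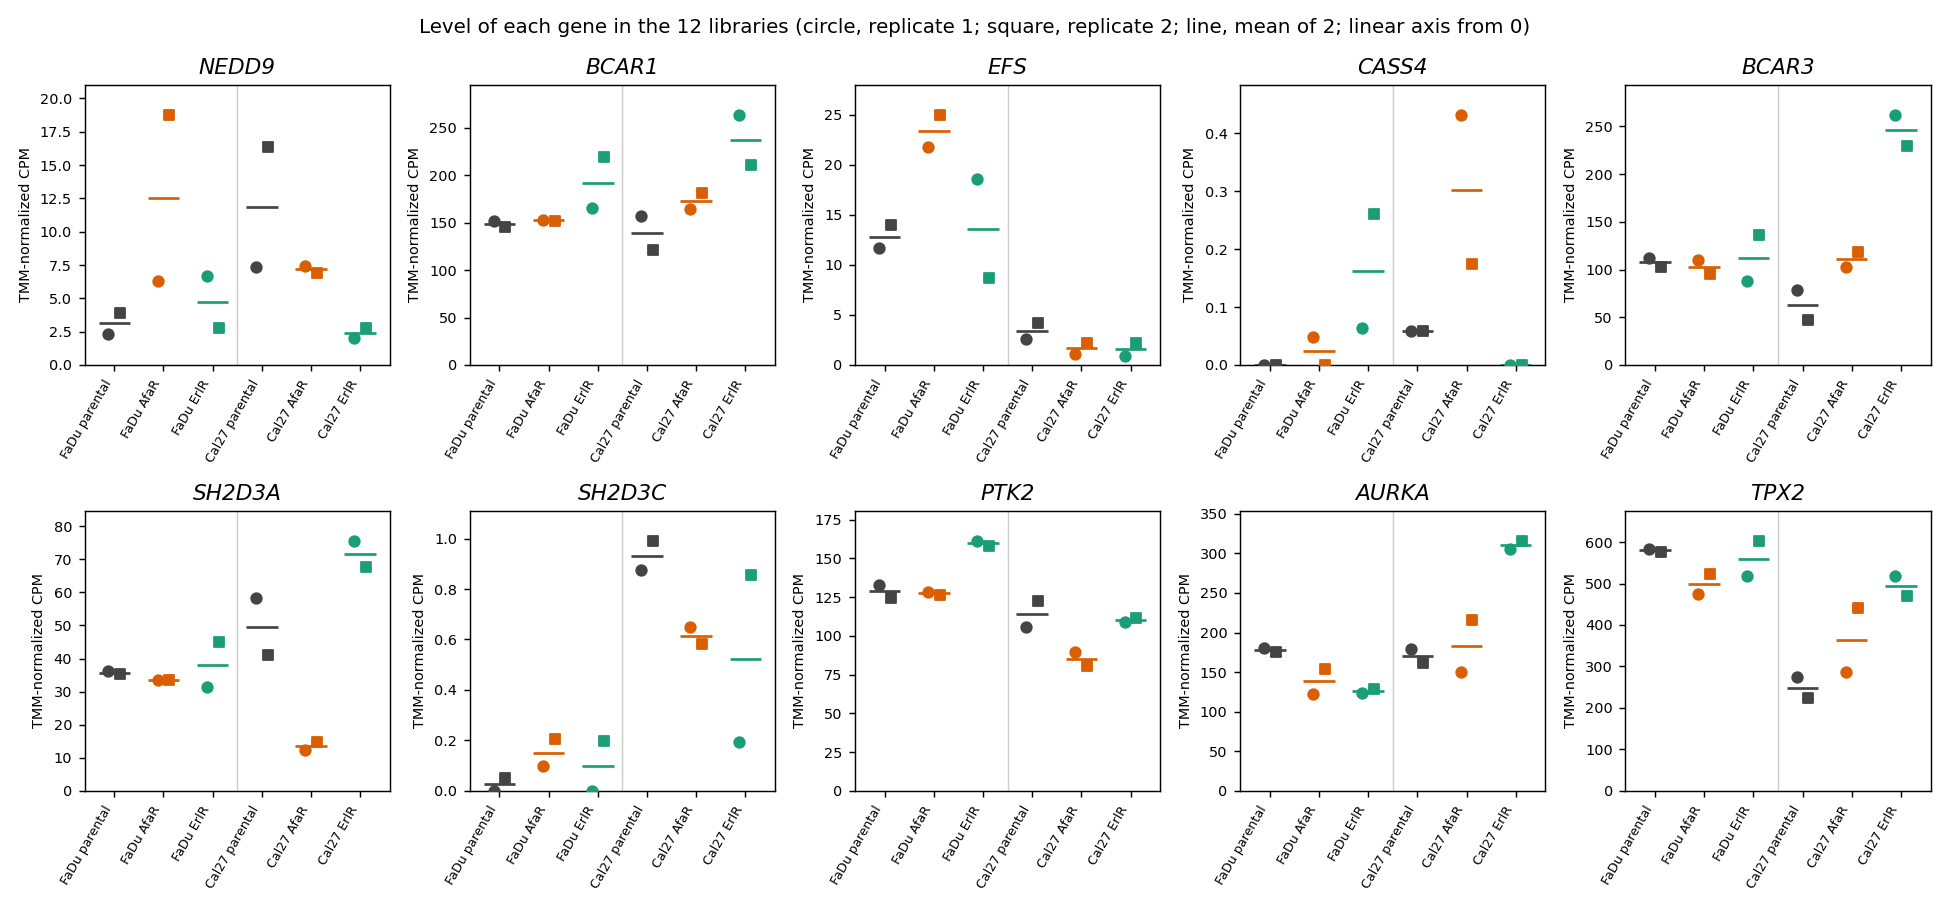
Level of each of the 10 genes in every library, as TMM-scaled CPM on a linear axis whose range differs between panels. Each library is 1 point, and a bar marks the mean of each group (n = 2). NEDD9 spans 2.33 to 18.8 CPM in the FaDu libraries and 2.04 to 16.3 CPM in the Cal27 libraries, whereas PTK2 spans only 80.7 to 161 CPM over all 12.

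NEDD9 (ENSG00000111859, chromosome 6, 11183298 to 11382348, minus strand) was higher in FaDu AfaR and lower in Cal27 ErlR than in the parental cells. In FaDu, its level was 2.33 and 3.90 CPM in the parental libraries and 6.31 and 18.8 CPM in the AfaR libraries. The ErlR libraries had 6.65 and 2.75 CPM. Both AfaR libraries lay above both parental ones, but 1 of them was far above the other, while the ErlR libraries straddled the upper parental value. The log2 fold change in FaDu AfaR was 1.99 (SE 0.546, adjusted p = 0.0361, edgeR's quasi-likelihood test) and that in FaDu ErlR was 0.59 (SE 0.566, adjusted p = 0.607). The FaDu AfaR call was lost with DESeq2 (adjusted p = 0.0738). Without AfaR replicate 2 the log2 fold change was 1.00 (adjusted p = 0.267), without parental replicate 1 it was 1.66 (adjusted p = 0.212), and without parental replicate 2 it was 2.40 (adjusted p = 0.078). The FaDu ErlR value was -0.19 without ErlR replicate 1 and 1.09 without ErlR replicate 2.

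In Cal27, the parental cells had the highest mean. NEDD9 had 7.34 and 16.3 CPM in the parental libraries, 7.45 and 6.91 CPM in AfaR, and 2.04 and 2.75 CPM in ErlR. Both ErlR libraries lay below every other Cal27 library, and the AfaR libraries lay close to the lower parental value. The log2 fold change was -2.33 in Cal27 ErlR (SE 0.391, adjusted p = 0.00279) and -0.72 in Cal27 AfaR (SE 0.354, adjusted p = 0.139). Leaving out 1 library gave AfaR values from -1.18, without parental replicate 1, to -0.03. With the low-count filter off, edgeR called the AfaR value (-0.71, adjusted p = 0.0394), while DESeq2 and ERCC scaling did not. The fall in Cal27 ErlR kept its call in all 14 alternatives, between -2.77 and -1.62. NEDD9 was also higher in Cal27 AfaR than in Cal27 ErlR, by a log2 fold change of 1.61 (adjusted p = 0.00784), a call lost without AfaR replicate 1 (1.54, adjusted p = 0.0509).

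The change of NEDD9 differed between the lines for both drugs. Taken as FaDu less Cal27, the difference between the log2 fold changes was 2.74 for AfaR (SE 0.744, adjusted p = 0.023, edgeR's interaction term) and 2.90 for ErlR (SE 0.795, adjusted p = 0.0246), in comparisons where 18.6% of all genes were called for either drug. For AfaR the call was lost without FaDu AfaR replicate 2 (1.76, adjusted p = 0.107), FaDu parental replicate 1, Cal27 parental replicate 2 or either Cal27 AfaR library. For ErlR it was lost without FaDu ErlR replicate 1 (2.12, adjusted p = 0.119), FaDu parental replicate 1, Cal27 parental replicate 2 or Cal27 ErlR replicate 1. The parental cells themselves differed, with Cal27 above FaDu by a log2 fold change of 1.93 (adjusted p = 0.00906), which became 1.24 (adjusted p = 0.108) without Cal27 parental replicate 2 and 1.59 (adjusted p = 0.079) without FaDu parental replicate 1. From the highest mean to the lowest, the 6 groups ran FaDu AfaR (12.5 ± 8.81 CPM, SD, n = 2), Cal27 parental (11.8 ± 6.36), Cal27 AfaR (7.18 ± 0.386), FaDu ErlR (4.70 ± 2.76), FaDu parental (3.11 ± 1.11) and Cal27 ErlR (2.40 ± 0.499). The ranges of the first 2 groups overlapped, as did those of Cal27 parental with Cal27 AfaR, of FaDu ErlR with FaDu parental, and of FaDu parental with Cal27 ErlR, whereas Cal27 AfaR and FaDu ErlR did not overlap.

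In 4 of the 6 groups replicate libraries differed more in NEDD9 than in nearly all other genes. The higher AfaR library of FaDu was 2.97-fold above the lower one, a larger gap than in 99% of 13233 genes of that group, and the gap was 2.42-fold in FaDu ErlR (above 98.1% of genes), 2.23-fold in Cal27 parental (97.7%) and 1.67-fold in FaDu parental (95.1%). In Cal27 ErlR it was 1.35-fold (above 80.3% of genes), and in Cal27 AfaR it was 1.08-fold, above only 28.5% of genes. The raw counts behind these values ran from 32 to 456 reads. The endothelial markers, 7 genes, summed to 6.69 and 20.7 CPM in the same FaDu AfaR libraries. In parental cells the sum was 3.50 to 6.08 CPM for FaDu and up to 33.2 CPM for Cal27, and in the other resistant models it was 3.20 to 3.32 CPM for FaDu ErlR, 30.4 to 37.6 CPM for Cal27 AfaR and 2.68 to 6.48 CPM for Cal27 ErlR. CDH5, named here after its values were seen, made 3.25 and 15.8 CPM of the sum in FaDu AfaR. It also made nearly all of the sum in Cal27 parental (30.3 and 30.7 CPM) and Cal27 AfaR (35.8 and 28.5 CPM). In Cal27 ErlR it had 1.09 and 4.16 CPM. VWF had 0.340 and 0.780 CPM in FaDu parental against 1.1 and 3.3 CPM in the AfaR libraries, and PECAM1 was at 0.895 to 2.09 CPM in all 12 libraries. Of the other endothelial markers, EMCN was at 0 in both libraries of 4 groups, KDR in Cal27 parental, TEK in FaDu ErlR and CLDN5 in FaDu parental and Cal27 ErlR. The part of this list in the NEDD9 result was not tested. NEDD9 shares 53 exon bases with an antisense long noncoding RNA gene, and reads on those bases cannot be told apart without strand, whose setting is not given in the sources used here.

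**Figure D2:**
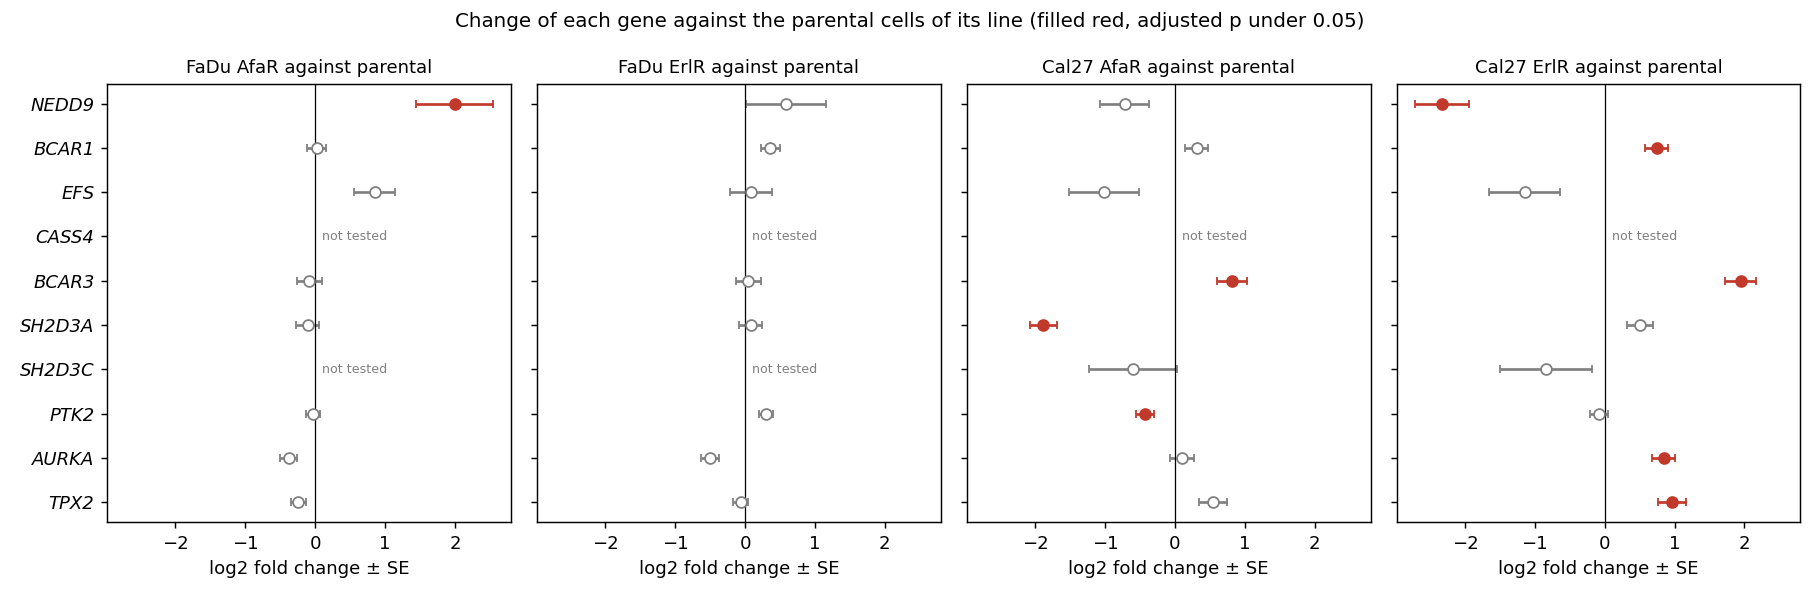
Log2 fold change of each gene against the parental cells of its line, with the standard error as a bar and filled red points for an adjusted p under 0.05 (edgeR's quasi-likelihood test, 2 libraries per group). NEDD9 lies at 1.99 in FaDu AfaR and at -2.33 in Cal27 ErlR, and BCAR3 has its largest value in Cal27 ErlR at 1.94.

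BCAR1 (ENSG00000050820, chromosome 16, 75228187 to 75268053) rose in Cal27 ErlR. It had 157 and 121 CPM in Cal27 parental, 165 and 181 CPM in AfaR, and 263 and 211 CPM in ErlR. Both ErlR libraries were above all other Cal27 libraries, and the AfaR libraries lay just above the higher parental one. The log2 fold change was 0.75 in Cal27 ErlR (SE 0.164, adjusted p = 0.00981, edgeR) and 0.32 in Cal27 AfaR (adjusted p = 0.159). The ErlR call was lost without Cal27 parental replicate 2 (0.59, adjusted p = 0.0784) or ErlR replicate 1 (0.58, adjusted p = 0.0673). In FaDu, BCAR1 had 151 and 146 CPM in parental, 153 and 152 CPM in AfaR, and 165 and 219 CPM in ErlR. FaDu AfaR was nearly level with parental (0.02, adjusted p = 0.933), and ErlR lay above it in both libraries without a call (0.36, adjusted p = 0.163). BCAR1 shares 799 exon bases with 2 other annotated genes.

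EFS (ENSG00000100842, chromosome 14, 23356402 to 23365752), a CAS scaffold that binds SRC family kinases, passed the test in none of the 4 comparisons. In FaDu it had 11.7 and 13.9 CPM in parental, 21.8 and 25.0 CPM in AfaR, and 18.5 and 8.70 CPM in ErlR. The AfaR libraries lay above all other FaDu libraries, with a log2 fold change of 0.85 (SE 0.291, adjusted p = 0.0711, edgeR), and DESeq2 gave the same 0.85 with an adjusted p of 0.0247. This rise was also called by edgeR with ERCC scaling (1.04, adjusted p = 0.0375), with the low-count filter off (0.000318) and in the fit of only the 4 libraries (0.0147). Size factors of median ratios, the filter at 10 counts and the 12-library fit did not call it. In Cal27, EFS had 2.62 and 4.14 CPM in parental, 1.13 and 2.21 CPM in AfaR, and 0.894 and 2.20 CPM in ErlR. Every resistant Cal27 library was below both parental ones, with log2 fold changes of -1.02 (SE 0.501, adjusted p = 0.139) in AfaR and -1.15 (SE 0.509, adjusted p = 0.124) in ErlR. The Cal27 ErlR value was called with the low-count filter off (-1.13, adjusted p = 0.0337), and leaving out 1 library gave -1.91 to -0.64. The AfaR changes of the lines differed, FaDu less Cal27, by 1.89 (adjusted p = 0.0431), a call lost in 6 of 18 alternatives, each of which left out 1 library (1.48, adjusted p = 0.164, without Cal27 AfaR replicate 1). Cal27 parental cells had less EFS than FaDu parental cells (log2 fold change -1.92, adjusted p = 0.00156), a call kept in all 18 alternatives with values between -2.28 and -1.33. EFS shares 285 exon bases with an antisense long noncoding RNA gene.

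CASS4 (ENSG00000087589, chromosome 20, 56412112 to 56460387) was near or at the limit of detection everywhere. Its raw counts were 0 and 0 in FaDu parental, 1 and 0 in FaDu AfaR, and 1 and 4 in FaDu ErlR. In Cal27 they were 1 and 1 in parental, 8 and 3 in AfaR, and 0 and 0 in ErlR. A count of 0 allows up to 3 counts, or 0.123 to 0.196 CPM in these libraries, by counting error only. The values of 8 counts (0.432 CPM) in Cal27 AfaR and 4 counts (0.262 CPM) in FaDu ErlR, were the only ones above that limit, and no fold change is given. CASS4 lies 19.8 kb from AURKA on chromosome 20, and these neighbours had very different levels in every group.

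BCAR3 (ENSG00000137936, chromosome 1, 93561786 to 93847150), the adaptor that joins CAS proteins to RAP and SRC signalling and was first found through antiestrogen resistance of breast cancer cells, rose in both Cal27 models. It had 78.7 and 47.0 CPM in Cal27 parental, 103 and 119 CPM in AfaR, and 262 and 230 CPM in ErlR. The 3 groups did not overlap. The log2 fold change was 1.94 in Cal27 ErlR (SE 0.220, adjusted p = 0.000466, edgeR), kept in all 14 alternatives between 1.64 and 2.38, and 0.82 in Cal27 AfaR (SE 0.215, adjusted p = 0.0148). The AfaR call was lost without Cal27 parental replicate 2 (0.49, adjusted p = 0.0793), AfaR replicate 1 (0.92, adjusted p = 0.0529) or AfaR replicate 2 (0.73, adjusted p = 0.0903). AfaR lay below ErlR by -1.12 (adjusted p = 0.00215). In FaDu, BCAR3 had 112 and 103 CPM in parental, 110 and 95.7 CPM in AfaR, and 88.1 and 136 CPM in ErlR. These 3 groups overlapped, with log2 fold changes of -0.08 (adjusted p = 0.778) in AfaR and 0.05 (adjusted p = 0.912) in ErlR. The ErlR difference, FaDu less Cal27, was -1.91 (SE 0.322, adjusted p = 0.00224), kept in all 18 alternatives. BCAR3 shares 129 exon bases with the antisense gene BCAR3-AS1.

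Genes around BCAR3 were also higher in Cal27 ErlR. Of 16 other genes tested whose starts lie within 1 Mb of the BCAR3 start, 11 were called higher and none lower in Cal27 ErlR, where 12.3% of all genes were called higher, and their median log2 fold change was 0.93. Among them were ARHGAP29 (1.61), DR1 (1.53), DNTTIP2 (1.36) and GCLM (1.17), on either side of BCAR3, named after their values were seen. In Cal27 AfaR 3 of the same 16 were called higher and 3 lower, with a median of 0.01, where 19.5% of all genes were called higher and 18.2% lower. In FaDu, where 15 were tested, the median was -0.16 in AfaR and -0.05 in ErlR. Neighbours share a stretch of chromosome and are not independent of each other. Around NEDD9 the median in FaDu AfaR, where NEDD9 rose, was 0.35 over 14 genes and 0.66 over the 5 genes within 0.5 Mb. Of the 14 genes, 12 were positive and 1 was called higher, where 10.4% of all genes were called higher. The same medians in Cal27 ErlR were -0.02 for NEDD9 (13 genes, and -0.38 for the 3 genes within 0.5 Mb), 0.25 for AURKA (7 genes), 0.44 for TPX2 (13 genes, 6 called higher and 1 lower) and -0.90 for PTK2 (9 genes, 1 called higher and 4 lower). Of all genes there, 12.3% were called higher and 15.3% lower. In FaDu, where neither AURKA nor TPX2 was called, the median around AURKA was -0.19 in AfaR and -0.41 in ErlR (7 genes). Around TPX2 it was -0.30 in AfaR and -0.01 in ErlR (14 genes). In Cal27 AfaR, where PTK2 and SH2D3A were called lower, the median around PTK2 was -0.59 (9 genes, 1 called higher and 4 lower). Around SH2D3A it was -0.33 there (37 genes, 4 called higher and 14 lower), where 18.2% of all genes were called lower. The SH2D3A neighbours had a median of -0.39 in Cal27 ErlR (37 genes, 1 called higher and 11 lower), where 15.3% of all genes were called lower and SH2D3A was not called.

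**Figure D3:**
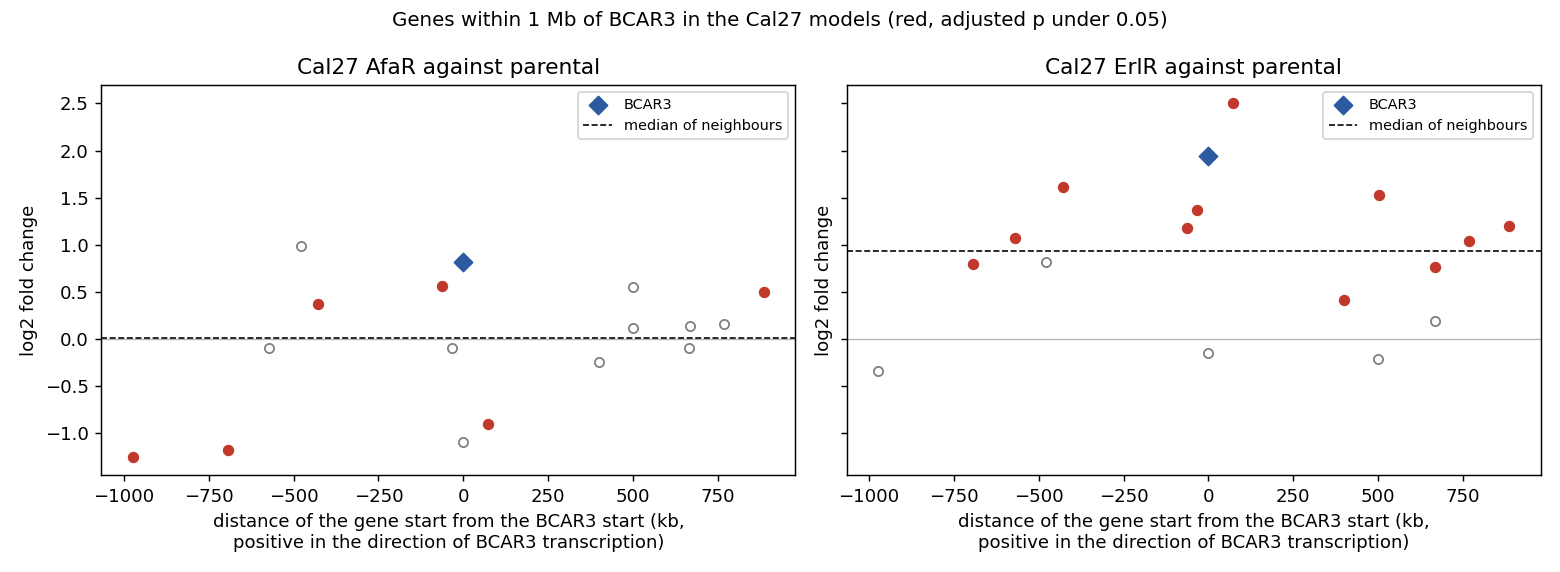
Log2 fold change of genes tested within 1 Mb of the BCAR3 start, by distance in kb from that start, in Cal27 AfaR and Cal27 ErlR against Cal27 parental cells. In Cal27 ErlR 13 of the 16 neighbours lie above 0, with a median of 0.93, and in Cal27 AfaR 8 of 16 do, with a median of 0.01.

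SH2D3A (ENSG00000125731, chromosome 19, 6752160 to 6767588), the NSP adaptor known from signalling by epidermal growth factor and integrins, fell in Cal27 AfaR. It had 58.3 and 41.0 CPM in Cal27 parental, 12.2 and 14.7 CPM in AfaR, and 75.6 and 67.6 CPM in ErlR. AfaR lay far below and ErlR above the parental libraries. The log2 fold change was -1.88 in Cal27 AfaR (SE 0.193, adjusted p = 0.000106, edgeR), between -2.11 and -1.61 in all 16 alternatives, each of which kept the call. In Cal27 ErlR it was 0.50 (SE 0.182, adjusted p = 0.0672), and AfaR lay below ErlR by -2.38 (adjusted p = 1.99e-05). In the same 2 AfaR libraries the squamous markers had their lowest sum and the fibroblast markers their highest, as given above, and the part of these lists in the SH2D3A value was not tested. In FaDu, SH2D3A had 36.1 and 35.3 CPM in parental, 33.6 and 33.6 CPM in AfaR, and 31.4 and 44.9 CPM in ErlR. Neither FaDu model was called (-0.11, adjusted p = 0.681, and 0.08, adjusted p = 0.831). The AfaR difference, FaDu less Cal27, was 1.80 (SE 0.273, adjusted p = 0.000787), kept in all 18 alternatives.

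SH2D3C (ENSG00000095370, chromosome 9, 127738317 to 127778741), the adaptor best known from lymphocytes and endothelial cells, was barely detected. Its raw counts in FaDu were 0 and 1 in parental, 2 and 5 in AfaR, and 0 and 3 in ErlR, so that 1 of 6 libraries was above 3 counts. In Cal27 there were 15 and 17 counts in parental, 12 and 10 in AfaR, and 3 and 14 in ErlR. Log2 fold changes were -0.59 (SE 0.631, adjusted p = 0.489) in Cal27 AfaR and -0.84 (SE 0.653, adjusted p = 0.37) in Cal27 ErlR, with errors close to the values in size. The parental lines differed (adjusted p = 0.00314, edgeR), with no fold given at these counts.

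PTK2 (ENSG00000169398, chromosome 8, 140657900 to 141002216) encodes focal adhesion kinase, which binds the SH3 domain of CAS proteins. Its level ranged from 80.7 to 161 CPM over the 12 libraries. In Cal27 it had 106 and 123 CPM in parental, 89.3 and 80.7 CPM in AfaR, and 109 and 111 CPM in ErlR. The AfaR libraries lay below the others and the ErlR libraries between the parental ones. The log2 fold change was -0.43 in Cal27 AfaR (SE 0.132, adjusted p = 0.0304, edgeR) and -0.08 in Cal27 ErlR (adjusted p = 0.685). The AfaR call was lost with ERCC scaling (-0.42, adjusted p = 0.0504) and without parental replicate 2 (-0.31, adjusted p = 0.214), AfaR replicate 1 (-0.50, adjusted p = 0.0657) or AfaR replicate 2 (-0.34, adjusted p = 0.171). In FaDu, PTK2 had 133 and 125 CPM in parental, 128 and 127 CPM in AfaR, and 161 and 158 CPM in ErlR. FaDu ErlR was above the other FaDu libraries without a call (0.30, SE 0.0998, adjusted p = 0.124), and FaDu AfaR was level with parental (-0.03, adjusted p = 0.839).

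AURKA (ENSG00000087586, chromosome 20, 56369389 to 56392337, minus strand) and TPX2 (ENSG00000088325, chromosome 20, 31739271 to 31801805, plus strand) both rose in Cal27 ErlR. AURKA had 180 and 161 CPM in Cal27 parental, 150 and 215 CPM in AfaR, and 306 and 316 CPM in ErlR. TPX2 had 274 and 224 CPM in Cal27 parental, 286 and 440 CPM in AfaR, and 519 and 470 CPM in ErlR. The ErlR libraries of both genes were above every other Cal27 library, while the 2 AfaR libraries differed widely from each other. In Cal27 ErlR the log2 fold change of AURKA was 0.84 (SE 0.170, adjusted p = 0.00662, edgeR) and that of TPX2 was 0.97 (SE 0.200, adjusted p = 0.00745). Both calls were kept in all 14 alternatives, with values of 0.78 to 0.94 for AURKA and 0.84 to 1.13 for TPX2. In Cal27 AfaR, AURKA was not called (0.10, SE 0.169, adjusted p = 0.671), nor was TPX2 (0.54, SE 0.199, adjusted p = 0.0569), which DESeq2 did call at 0.55 (adjusted p = 0.024). TPX2 was also called there by edgeR with ERCC scaling (adjusted p = 0.0467), with either other low-count filter (0.00242 and 0.0451) and in the 12-library fit (0.028). RLE size factors and the fit of only the 4 libraries did not call it. Leaving out 1 library gave 0.22 to 0.82. AURKA was lower in Cal27 AfaR than in Cal27 ErlR (-0.74, adjusted p = 0.00561).

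In the FaDu models neither gene was called. AURKA had 180 and 175 CPM in FaDu parental, 122 and 154 CPM in AfaR, and 124 and 129 CPM in ErlR. Every resistant library was below both parental ones, with log2 fold changes of -0.38 in AfaR (SE 0.124, adjusted p = 0.0621, edgeR) and -0.50 in ErlR (SE 0.124, adjusted p = 0.0571). DESeq2 called both, at -0.38 (adjusted p = 0.0462) and -0.50 (adjusted p = 0.0122), while ERCC scaling gave -0.19 and -0.01. With the low-count filter off, edgeR also called both (adjusted p = 0.0316 and 0.002). The fit of only the 4 libraries called ErlR (adjusted p = 0.03) and not AfaR. RLE size factors, the filter at 10 counts and the 12-library fit called neither. TPX2 had 584 and 576 CPM in FaDu parental, 474 and 522 CPM in AfaR, and 517 and 603 CPM in ErlR. Its AfaR libraries lay below parental and its ErlR libraries on both sides, with log2 fold changes of -0.24 (SE 0.112, adjusted p = 0.159) and -0.06 (SE 0.112, adjusted p = 0.81). The ErlR difference, FaDu less Cal27, was -1.36 for AURKA (SE 0.224, adjusted p = 0.00205), kept in all 18 alternatives, and -1.04 for TPX2 (SE 0.249, adjusted p = 0.0135). The TPX2 difference was -0.58 (adjusted p = 0.0971) with ERCC scaling, -0.93 (adjusted p = 0.0524) without FaDu ErlR replicate 1 and -0.90 (adjusted p = 0.0578) without Cal27 parental replicate 2. Before selection, TPX2 was lower in Cal27 than in FaDu (-1.22, adjusted p = 9.48e-05, and -0.64 with ERCC scaling). BCAR3 was also lower there (-0.77, adjusted p = 0.0118), although the value was -0.20 (adjusted p = 0.388) with ERCC scaling and -0.45 (adjusted p = 0.125) without Cal27 parental replicate 2. SH2D3A was slightly higher (0.48, adjusted p = 0.0476), a call lost in 11 of 18 alternatives (0.20, adjusted p = 0.447, without Cal27 parental replicate 1).

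Partners of the CAS proteins were followed in a list of 31 genes, of which 30 were tested. In FaDu AfaR 4 were called higher and 1 lower (16.7% of those tested), in FaDu ErlR 1 higher (3.33%), in Cal27 AfaR 11 higher and 5 lower (53.3%), and in Cal27 ErlR 9 higher and 4 lower (43.3%), with median log2 fold changes of -0.01, 0.11, 0.24 and 0.17. Of all genes tested, 17.9%, 4.18%, 37.6% and 27.6% were called in the same comparisons, so the shares in both FaDu models were near those of all genes. Under ERCC scaling the FaDu ErlR count was 23, all higher, in a fit that called 5747 of 15092 genes. TGFB1I1, a paxillin relative of focal adhesions also called HIC-5, rose in 3 of the 4 models. In FaDu it was at 1.65 and 2.70 CPM before selection and at 8.78 and 10.7 CPM in AfaR (log2 fold change 2.14, adjusted p = 0.00529, edgeR). In Cal27 it went from 1.86 and 1.98 CPM in parental to 27.1 and 34.4 CPM in AfaR (3.99, adjusted p = 5.36e-06) and 4.98 and 5.87 CPM in ErlR (1.47, adjusted p = 0.00261). The fibroblast markers summed to 30.2 to 41.8 CPM in Cal27 parental and to 315 to 327 CPM in the same AfaR libraries. COL1A1 made most of the AfaR sum, and the part of these markers in the TGFB1I1 value was not tested. FYN, a SRC family kinase that phosphorylates CAS proteins, was called higher in all 4 models, with log2 fold changes of 0.63, 1.10, 2.27 and 1.08. It rose from 8.40 and 8.01 CPM in FaDu parental to 18.9 and 16.5 CPM in FaDu ErlR, and from 1.57 and 1.4 CPM in Cal27 parental to 6.97 and 7.37 CPM in Cal27 AfaR.

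LYN and PTK2B, other kinases of the list, fell in both Cal27 models, whereas ABL1 rose in Cal27 AfaR (0.46, adjusted p = 0.0325, edgeR) and YES1 in Cal27 ErlR (0.57, adjusted p = 0.00735), the last 2 named after their values were seen. LYN, also of the SRC family, was 118 and 154 CPM in Cal27 parental, 49.5 and 44.6 CPM in AfaR (-1.53, adjusted p = 0.000108, edgeR) and 61.5 and 58.4 CPM in ErlR (-1.20, adjusted p = 0.000922). PTK2B, the closest relative of PTK2, was 42.3 and 41.4 CPM in Cal27 parental, 19.2 and 14.7 CPM in AfaR (-1.30, adjusted p = 0.000395) and 19.4 and 19.3 CPM in ErlR (-1.14, adjusted p = 0.00155). Neither was called in the FaDu models, where PTK2B had 20.9 and 21.2 CPM in parental and 32.3 and 58.7 CPM in ErlR (1.10, adjusted p = 0.0542). RAP1A, the small GTPase downstream of CRK and NSP adaptors, rose in Cal27 ErlR from 75.4 and 68.4 CPM to 286 and 275 CPM (1.94, adjusted p = 5.5e-05). In FaDu AfaR, ELMO1, the partner of DOCK exchange factors, rose from 11.7 and 12.7 CPM to 26.7 and 27.5 CPM (1.13, adjusted p = 0.00436), and the ubiquitin ligase ITCH fell from 106 and 101 CPM to 79.2 and 75.0 CPM (-0.44, adjusted p = 0.0311). With ERCC scaling 5 genes of the list were called higher in FaDu AfaR and none lower.

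Regulators and partners of AURKA in mitosis were followed in a list of 36 genes. In FaDu AfaR 1 of 36 was called higher and 7 lower (22.2%), in FaDu ErlR 2 lower (5.56%), in Cal27 AfaR 4 of 35 higher and 3 lower (20%), and in Cal27 ErlR 8 of 35 higher and 3 lower (31.4%). The shares of all genes in either direction were 17.9%, 4.18%, 37.6% and 27.6%, near those of the list except in Cal27 AfaR, where the list had the smaller share. By direction, 10.4% of all genes were called higher and 7.49% lower in FaDu AfaR, and 2.58% and 1.6% in FaDu ErlR. In Cal27 AfaR 19.5% were called higher and 18.2% lower, and in Cal27 ErlR 12.3% and 15.3%. Beside these shares, the list leaned lower in FaDu AfaR and higher in Cal27 ErlR. The median log2 fold change was -0.26 and -0.17 in FaDu AfaR and ErlR, and 0.00 and 0.32 in Cal27 AfaR and ErlR. With ERCC scaling the FaDu counts were 1 higher and 1 lower in AfaR and 10 higher in ErlR. In FaDu AfaR the falls were led by CDC20, the activator of the anaphase-promoting complex (611 and 603 CPM to 412 and 386 CPM, log2 fold change -0.62, adjusted p = 0.00723, edgeR), and by the cyclin CCNB1 (-0.60, adjusted p = 0.0101), while NUMA1, a spindle pole protein, rose (0.73, adjusted p = 0.00962). In FaDu ErlR the cyclin CCNB2 (-0.57, adjusted p = 0.0377) and the phosphatase CDC25B (-0.49, adjusted p = 0.0495) fell.

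In Cal27 ErlR the kinase PLK1, which AURKA activates, rose from 155 and 137 CPM to 304 and 269 CPM (0.95, adjusted p = 0.00936, edgeR). FOXM1, the transcription factor of mitotic genes, rose from 92.3 and 82.4 CPM to 164 and 179 CPM (0.95, adjusted p = 0.00547). In the other direction CDC25B (-0.50, adjusted p = 0.0159) and the centrosome scaffold CEP192 (-0.47, adjusted p = 0.0293) fell. In Cal27 AfaR FOXM1 (0.83, adjusted p = 0.00671) and TACC3, a spindle protein that AURKA phosphorylates (0.54, adjusted p = 0.02), rose, whereas RCC1, the exchange factor of RAN (-1.02, adjusted p = 0.000809), and the kinase PKMYT1, which holds back CDK1 (-0.76, adjusted p = 0.00702), fell.

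**Figure D4:**
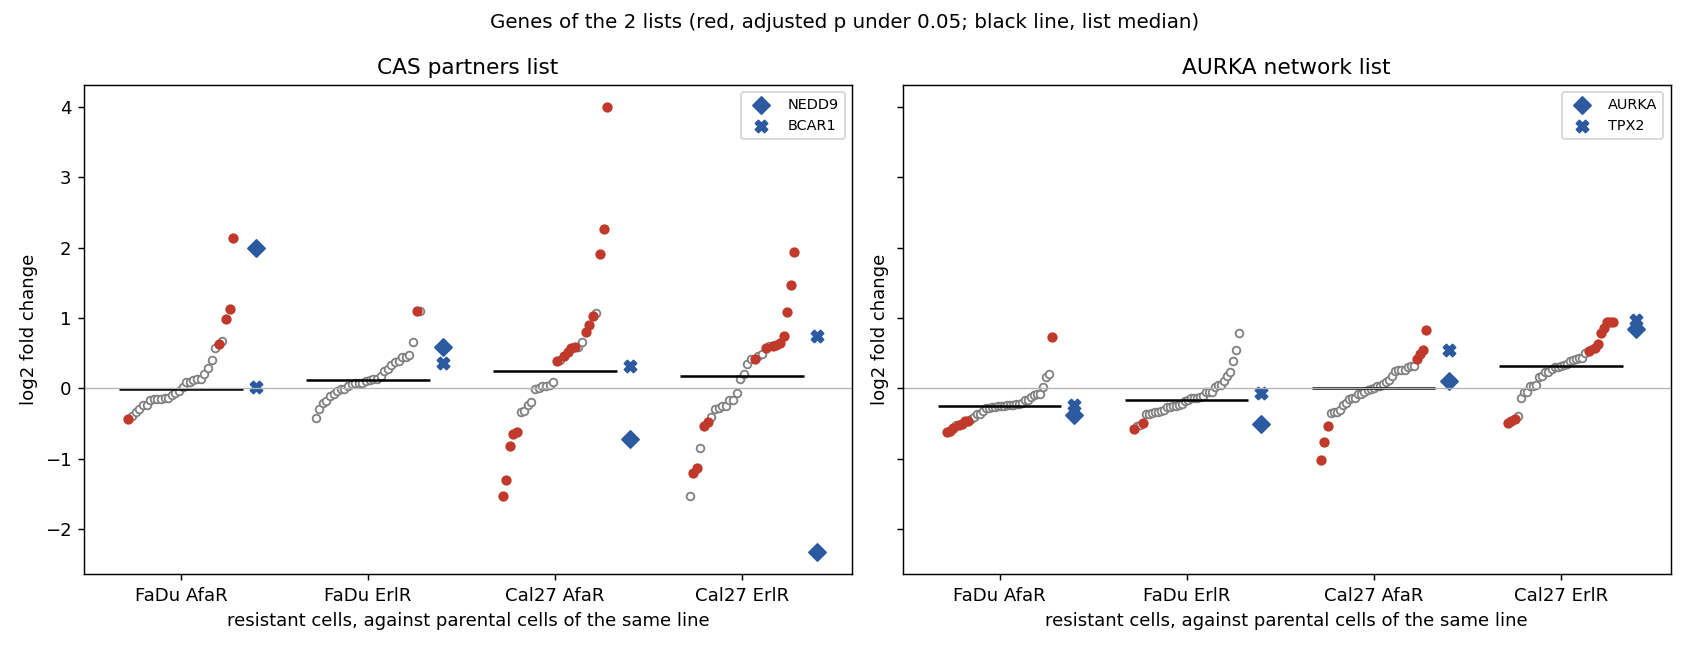
Log2 fold changes of the CAS partner genes and the AURKA network genes in each resistant model against its parental cells, with 1 circle per gene tested, filled red for an adjusted p under 0.05, a black line at the list median, and blue symbols for NEDD9 and BCAR1 (left) and AURKA and TPX2 (right). The AURKA network has its lowest median in FaDu AfaR at -0.26 and its highest in Cal27 ErlR at 0.32.

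The genes whose pattern lay nearest to NEDD9 and AURKA were found among 10557 genes, from log2(CPM + 1) in each of the 12 libraries minus the mean of the line. The measure of likeness was the root mean square difference over the libraries, on the log2 scale. PCED1A (0.288), GLUL (0.350), the glutamine synthetase, and AGO4 (0.359), an Argonaute protein, were nearest to NEDD9, where the median gene had 0.910. In FaDu, PCED1A had 2.04 and 4.47 CPM in parental cells against 5.63 and 10.2 CPM in AfaR. In Cal27 it had 19.2 and 25.5 CPM in parental cells against 5.05 and 8.86 CPM in ErlR. KNL1 (0.10), a kinetochore scaffold, LBR (0.123), the lamin B receptor, and ILF2 (0.127) were nearest to AURKA, where the median gene had 0.400. TPX2 had 0.196 and was number 148 in that order.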

How the data were processed

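The 12 RNA-seq libraries were put in 6 groups of 2 by their labels. The authors deposited raw counts, whole numbers of reads per Ensembl gene and per ERCC spike-in, with gene lengths and exon coordinates. Per the submitters' processing notes, Trimmomatic 0.36, STAR 2.5.2b, featureCounts of Subread 1.5.2 and GRCh38 were used. The strand setting is not given in the sources used here. The authors' tables of normalized counts were not used here, and 0 columns were left without a sample. Spike-ins, 92 sequences, were left out of library sizes.

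Counts were tested in R 4.3.3 with edgeR 4.0.16 (TMM, filterByExpr, glmQLFit, glmQLFTest, Benjamini-Hochberg adjustment over all genes tested), with 1 fit per line over 6 libraries (15092 genes in FaDu, 15269 in Cal27) and 1 fit over 12 libraries (16240 genes) for differences between lines. The biological coefficient of variation was 14.5%, 15.3% and 15.0%. The code was tested on simulated data. With 2 libraries per group, differences near the size of the replicate spread were not detectable, and limits for counts of 0 use 3 counts and cover counting error only. Symbols came from GENCODE for 56948 of 58051 identifiers, and starts from RefSeq on GRCh38.p14.

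The 10 members, the 2 partner lists and the marker lists were chosen with earlier results of these data known, so no test was made over a list. Besides the members, the genes named are, in each list and comparison with parental cells, the called genes with the 2 largest rises and 2 largest falls, and the 3 genes nearest to NEDD9 and to AURKA in pattern among genes averaging at least 5 CPM. Genes named after their values were seen are said to be so. Alternatives were DESeq2 1.42.0, size factors of median ratios (RLE), ERCC scaling, the low-count filter off or set at 10 counts in each library, fits of 4 or 12 libraries, a replicate block, windows of 0.5 Mb, 0.1 CPM added in place of 1, and leaving out each library in turn. A replicate block with crossed numbers was added after seeing the data. Deviations of same-numbered libraries from their group means correlated at 0.163 (AfaR) and -0.106 (ErlR) in the FaDu comparisons with parental cells and at -0.257 (AfaR) and 0.121 (ErlR) in those of Cal27, so the numbers were not taken to pair libraries.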

Additional observations from a re-analysis of the deposited data

Results flagged for a closer look

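7 values are listed because the change of a gene in a resistant model differed between FaDu and Cal27 by edgeR's interaction term, in a fit where 18.6% of 16240 genes were called for either drug. For afatinib, the difference of the log2 fold changes, FaDu less Cal27, was 2.74 for NEDD9 (adjusted p = 0.023), 1.89 for EFS (adjusted p = 0.0431) and 1.80 for SH2D3A (adjusted p = 0.000787). NEDD9 and EFS went up in FaDu AfaR and down in Cal27 AfaR in the fitted values, of which only the NEDD9 rise in FaDu was itself called, and the SH2D3A difference came with a fall in Cal27 AfaR from a mean of 49.7 to 13.5 CPM. For erlotinib, the difference was 2.90 for NEDD9 (adjusted p = 0.0246), -1.91 for BCAR3 (adjusted p = 0.00224), -1.36 for AURKA (adjusted p = 0.00205) and -1.04 for TPX2 (adjusted p = 0.0135). In each of these 4 genes the change in Cal27 ErlR was called and that in FaDu ErlR was not. SH2D3A, BCAR3 and AURKA kept these calls in all 18 alternatives, while NEDD9, EFS and TPX2 lost theirs in at least 1.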

How the results depend on the processing

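Of 26 values of members called in any comparison, 14 kept their call in every alternative, 12 lost it in at least 1, and 0 reversed. The replicate numbers were not taken as pairs, and the replicate block called 0 members in FaDu AfaR (NEDD9 1.93, adjusted p = 0.0521) and took the call of PTK2 in Cal27 AfaR (-0.42, adjusted p = 0.0549) and of SH2D3A between the parental lines (0.48, adjusted p = 0.058), and changed no other member's call. The crossed pairing, chosen after seeing the data, called 1 member in FaDu ErlR and 5 in Cal27 AfaR in fits of 4 libraries, where the block by label called 0 and 2. DESeq2 called 2 members in FaDu AfaR, 1 in FaDu ErlR and 5 for the AfaR difference between lines, with 3 CAS partners and 5 AURKA network genes in FaDu ErlR. Size factors of median ratios called 1 member in FaDu AfaR against FaDu ErlR, where TMM called 0 (4 at an unadjusted p under 0.05). ERCC scaling called 2 members in FaDu AfaR, 5 in FaDu ErlR and 4 in FaDu AfaR against FaDu ErlR, and 2 AURKA network genes in FaDu AfaR, with 23 CAS partners and 10 AURKA network genes in FaDu ErlR. It reversed values that were not called, to 0.10 for BCAR3, 0.075 for SH2D3A and 0.15 for PTK2 in FaDu AfaR, and TPX2 in FaDu ErlR to 0.42. With no filter on low counts 3 members were called in FaDu AfaR, 1 in FaDu ErlR, 2 between the FaDu models, 5 in Cal27 AfaR and 5 for the AfaR difference. Fits of only the 4 libraries compared called 2 in FaDu AfaR and 1 in FaDu ErlR. Leaving out 1 library at a time gave 0 to 2 called members in FaDu AfaR, 0 to 1 in FaDu ErlR, 0 to 2 between the FaDu models, 1 to 4 in Cal27 AfaR, 1 to 5 and 2 to 4 for the AfaR and ErlR differences between lines, and 3 to 6 between the parental lines. It also reversed values that were not called. In FaDu AfaR these ranged from -0.011 to 0.039 for BCAR1, -0.19 to 0.016 for BCAR3 and -0.081 to 0.0027 for PTK2. In FaDu ErlR they ranged from -0.19 to 1.09 for NEDD9, -0.57 to 0.53 for EFS, -0.30 to 0.33 for BCAR3, -0.20 to 0.32 for SH2D3A and -0.18 to 0.044 for TPX2. AURKA in Cal27 AfaR ranged from -0.16 to 0.34 and PTK2 in Cal27 ErlR from -0.17 to 0.047. With windows of 0.5 Mb the median of the BCAR3 neighbours in Cal27 ErlR was 1.17. With 0.1 CPM added, FBXO2 took the place of AGO4 among the genes nearest to NEDD9. The causes of these changes were not tested. With 2 libraries per group and 32 to 456 reads on NEDD9, its replicate gaps limit what can be said of it, and CASS4 and SH2D3C in FaDu lay too near 0 for a fold.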
